A study of Homo sapiens with 16 samples.

Results

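The centromere and kinetochore genes described here are 35 human genes whose proteins build the chromosomal attachment site for spindle microtubules. They were chosen by name and not by a cut on their measured values, although earlier results of these data were known. They were found by matching the Ensembl identifiers of the count tables to gene symbols, which gave 35 of 60605 identifiers. Transcription was measured in LNCaP, an established androgen-responsive human prostate cancer cell line, by PRO-seq. In this run-on method, nascent RNA is labelled in nuclei by the polymerases engaged on genes, so it reads transcription under way and not the stored mRNA. The 16 libraries fall into 6 groups in 2 batches, all from this 1 line. Batch 1 holds cells labelled mock and cells given 6 Gy of ionizing radiation (IR), numbered as replicates 1 and 2, and each of these has a t1 and a t2 library. Batch 2 holds replicates 3 and 4 of 4 groups: cells kept for 90 min in DMSO vehicle, cells kept for 90 min in 10 µM enzalutamide, and cells that received 6 Gy after 30 min in vehicle or in 10 µM enzalutamide and were collected 60 min later. Enzalutamide is an antiandrogen drug used against prostate cancer. The labels give no times and no vehicle for the batch 1 groups, and they do not say what t1 and t2 are, so the counts of t1 and t2 were summed to 1 replicate.

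The kinetochore is assembled in layers. Nucleosomes that carry the histone H3 variant CENP-A mark the centromere and are replenished by the chaperone HJURP, which depends on the MIS18 complex. The constitutive centromere-associated network (CCAN) sits on this chromatin throughout the cell cycle, and in mitosis it recruits the KMN network, the SKA complex and the fibrous corona, which bind microtubules. INCENP and the shugoshins lie at the inner centromere between the sister kinetochores, where they hold the chromosomal passenger complex and protect cohesion. Many of these genes are transcribed mainly in the G2 phase and mitosis.

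Batch 1 libraries held 3438642 to 9363458 counts, and those of batch 2 held 10494563 to 19905824. The 34 members with any count had between 133.3 (CENPW) and 1596 (CENPP) counts per library on average. Replicates in batch 2 differed by more than counting noise, with a chi-square per degree of freedom of 3.47 to 6.72. The t1 and t2 libraries of 1 replicate differed further, with values of 6.76 to 30.0, and the difference ran in opposite directions in the groups. Batch 1 replicates with the same t number differed less, with values of 2.98 to 6.27. Each summed batch 1 sample holds both t numbers, so p-values that use these samples do not measure the t1 to t2 difference in full. Across 9305 genes with a mean above 30 CPM (counts scaled to the library size), the log2 ratio of t2 to t1 in mock cells and the same ratio in irradiated cells had r = -0.754, and across the 34 members r was -0.714. Genes share the libraries, so these coefficients are descriptions only. For this reason batch 1 values of the leading members are given also for t1 and for t2 alone. The luminal and LNCaP markers FOLH1, HOXB13, KRT8 and KRT18 had group means of at least 32.6 CPM, while the leukocyte marker PTPRC stayed at or below 0.666 CPM and the basal keratin KRT5 at or below 0.686 CPM. TP63 and COL1A1 reached 5.23 and 9.88 CPM. KLK3 averaged 182 CPM in mock cells of batch 1 and 14.9 CPM in vehicle cells of batch 2. All 4 p53 targets used to check the labels, CDKN1A, MDM2, BTG2 and FDXR, were called higher after IR in each comparison, with log2 fold changes of 1.98 to 3.65.

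Transcription of a subset of the 34 genes fell after irradiation, and none was called higher in the fits used here, which hold all samples, sum t1 and t2, leave out genes of low counts and have no replicate block. In vehicle cells of batch 2, 5 of 34 members were called lower, namely CENPE, NDC80, HJURP, INCENP and SGO2. A gene was called at an adjusted p under 0.05 in edgeR's quasi-likelihood test, and 0.353% of all 28651 genes tested were called lower in this comparison and 0.743% higher. In enzalutamide-treated cells, 4 of 34 members were called lower, CENPE, NDC80, HJURP and INCENP, against 0.293% of all genes called lower and 0.625% higher. In batch 1, 10 of 34 were called lower, against 0.819% of 25889 genes called lower and 2.0% higher. With both batches in 1 fit, 14 of 34 were called lower, against 1.66% of 29195 genes called lower and 2.39% higher. The 4 members called in every one of the 3 separate comparisons were NDC80, CENPE, HJURP and INCENP, of which CENPE alone kept all 3 calls in every alternative run. Taken by t number, batch 1 gave 13 members lower and 2 higher with t1 alone, when 17.3% of all genes were called, and 15 lower and 2 higher with t2 alone, when 44.7% were. The members called higher were CENPT and CENPW with t1 and CENPP and NSL1 with t2, named here after their values were seen. The labels do not say that replicates were separate cultures, so the p-values measure only the spread between these samples, which may be technical.

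The median log2 fold change of all 34 members was small, because most of them moved little. It was -0.13 in vehicle cells, -0.15 with enzalutamide, -0.19 in batch 1 and -0.16 over both batches, while the medians of all genes tested were -0.0057, -0.0139, -0.0021 and -0.0245. Over both batches 30 of 34 members had a log2 fold change below 0, as had 55.1% of all genes tested. In the 3 pairs of a control group and its irradiated group, 13 members had both irradiated samples below both control samples each time, a pattern found in 2.75% of 25370 genes. These 13 were CENPA, CENPI, CENPL, NDC80, NUF2, SPC25, KNL1, SKA2, CENPE, HJURP, INCENP, SGO1 and SGO2. How many members were called depended on single samples. Fewer were called in vehicle cells without the irradiated vehicle replicate 4, and in enzalutamide-treated cells without either irradiated replicate. More were called in enzalutamide-treated cells without enzalutamide replicate 4. Fewer were called in batch 1 and over both batches without the irradiated batch 1 replicate 2. In each of these runs the number of all genes called moved the same way. Each leaves a lone sample in a group, so the counts of single runs are not given here, and only their ranges are given with the other settings. In bulk libraries, fewer cells in the phase that transcribes a gene and less transcription in each cell cannot be told apart.

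**Figure D1:**
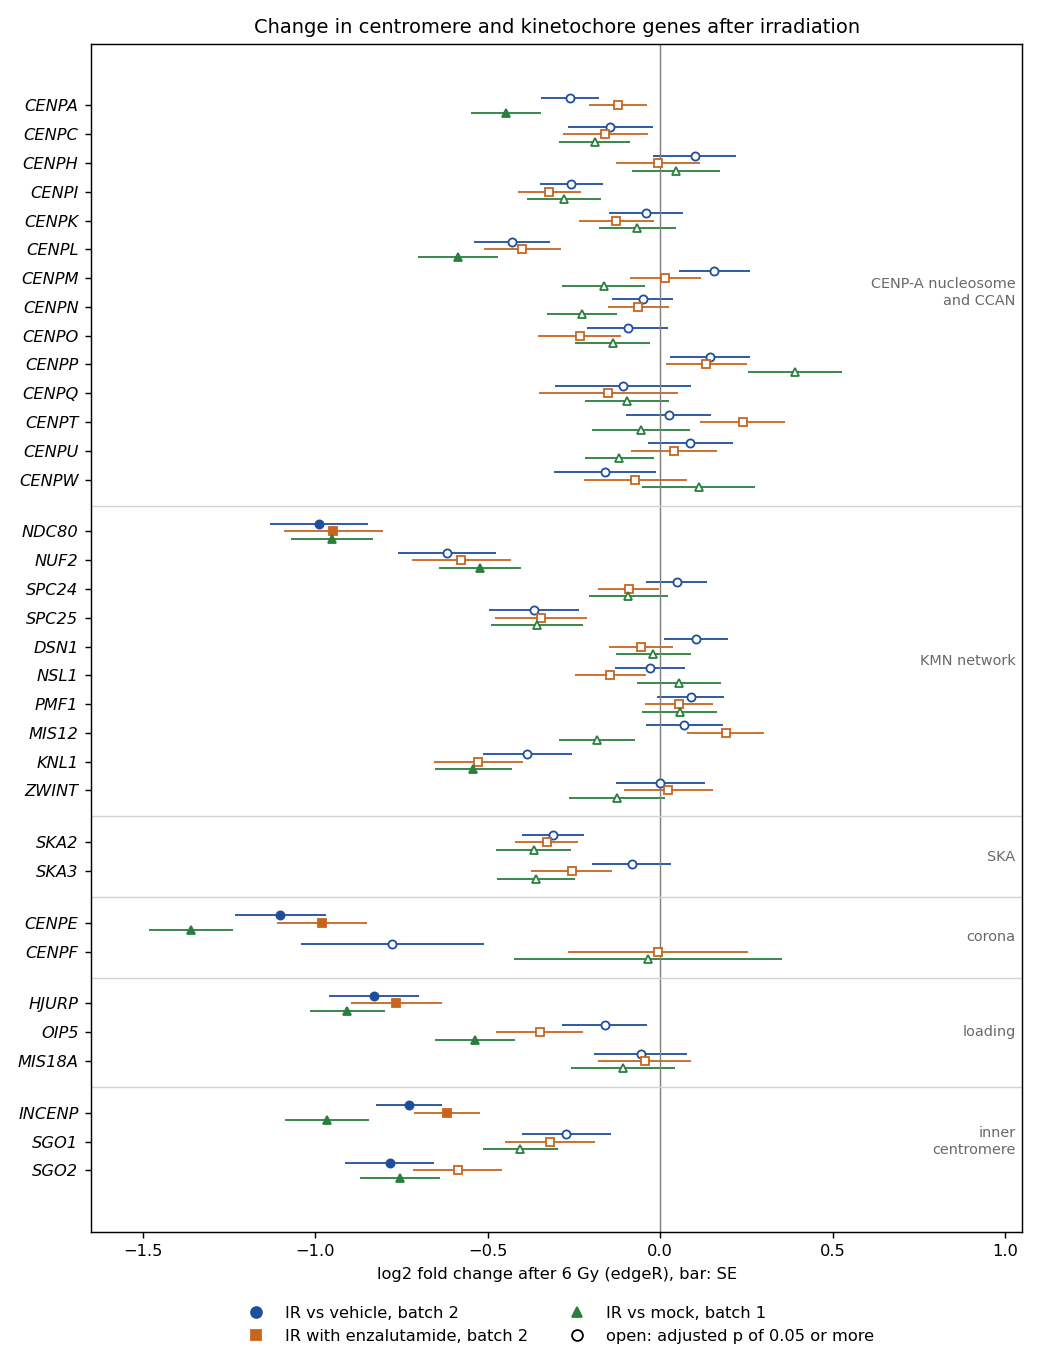
Log2 fold change after 6 Gy for the 34 members with counts, grouped by role, in vehicle cells (circles), enzalutamide-treated cells (squares) and batch 1 (triangles), with bars for 1 SE of the edgeR estimate and filled symbols for an adjusted p under 0.05. Every filled symbol lies left of 0, and CENPE lies furthest left in each of the 3 comparisons.

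CENPE is the kinesin of the corona that carries chromosomes towards the spindle equator. Its level was 53.5 and 58.9 CPM in mock cells and 19.9 and 23.7 CPM in irradiated cells of batch 1. In batch 2 it was 76.3 and 70.3 CPM in vehicle, 40.2 and 29.8 CPM after IR, 82.7 and 65.2 CPM in enzalutamide, and 37.0 and 39.9 CPM with both. No irradiated sample reached the level of any unirradiated sample. CENPE fell 2.57-fold in batch 1 (log2 fold change -1.36, SE 0.12, adjusted p = 2.645e-05 in edgeR), 2.15-fold in vehicle cells (-1.10, SE 0.13, adjusted p = 0.00047) and 1.97-fold in enzalutamide-treated cells (-0.98, SE 0.13, adjusted p = 0.00145). In batch 1 the log2 fold change was -1.85 with t1 libraries alone and -0.75 with t2 alone.

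NDC80, the microtubule-binding subunit that gives the NDC80 complex its name, had 54.0 and 63.7 CPM in mock cells against 28.2 and 32.4 CPM after IR in batch 1. In batch 2 it had 75.7 and 60.2 CPM in vehicle, 38.6 and 31.5 CPM after IR, 72.7 and 54.1 CPM in enzalutamide, and 34.97 and 32.6 CPM with both. All 6 irradiated samples were below all 6 unirradiated ones. The log2 fold changes were -0.95 (SE 0.12) in batch 1, -0.99 (SE 0.14) in vehicle and -0.95 (SE 0.14) in enzalutamide-treated cells, with edgeR adjusted p-values of 0.00045, 0.0022 and 0.0042. In batch 1 it was -1.42 with t1 libraries alone and -0.40 with t2 alone. The vehicle call was lost without the irradiated replicate 4, and the enzalutamide call without either irradiated replicate.

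HJURP, the chaperone that deposits CENP-A at centromeres, had 74.2 and 70.5 CPM in mock cells and 35.7 and 41.1 CPM in irradiated cells of batch 1. In batch 2 the values were 109 and 102 CPM in vehicle, 70.9 and 50.9 CPM after IR, 117 and 94.5 CPM in enzalutamide, and 66.7 and 60.9 CPM with both. Each irradiated group lay below its control without overlap, and the 2 irradiated vehicle samples were further apart than those of the other irradiated groups. HJURP fell 1.88-fold in batch 1, 1.78-fold in vehicle cells and 1.70-fold in enzalutamide-treated cells, with edgeR adjusted p-values of 0.00031, 0.0048 and 0.0105. In batch 1 the log2 fold change was -1.16 with t1 libraries alone and -0.60 with t2 alone. The vehicle call was lost without the irradiated replicate 4, and the enzalutamide call without replicate 3 of the unirradiated group or either irradiated replicate.

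INCENP is the scaffold that anchors the kinase Aurora B at the inner centromere. It had 35.01 and 33.3 CPM in mock cells, 16.9 and 17.9 CPM after IR in batch 1, 60.7 and 59.0 CPM in vehicle, 39.9 and 34.2 CPM after IR in batch 2, 57.8 and 57.7 CPM in enzalutamide, and 37.0 and 40.0 CPM with both. Within each batch all irradiated samples were below all unirradiated ones, but the mock values of batch 1 overlapped the irradiated values of batch 2. INCENP fell 1.95-fold in batch 1, 1.66-fold in vehicle and 1.54-fold in enzalutamide-treated cells, with edgeR adjusted p-values of 0.00042, 0.0011 and 0.005. In batch 1 the log2 fold change was -1.08 with t1 libraries alone and -0.81 with t2 alone, and the enzalutamide call was lost without either irradiated replicate.

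SGO2, a shugoshin that protects centromeric cohesion, had 41.8 and 38.1 CPM in mock cells and 24.2 and 23.2 CPM after IR in batch 1. In batch 2 it had 50.4 and 43.6 CPM in vehicle, 31.8 and 24.1 CPM after IR, 50.9 and 42.5 CPM in enzalutamide, and 31.7 and 32.2 CPM with both. Irradiated and unirradiated samples did not overlap in either batch. The log2 fold change was -0.75 (SE 0.12) in batch 1 and -0.78 (SE 0.13) in vehicle cells, with edgeR adjusted p-values of 0.0022 and 0.0067. In enzalutamide-treated cells it was -0.59 (SE 0.13) with an adjusted p of 0.061, which missed the threshold. With t1 libraries alone batch 1 gave -0.93 and with t2 alone -0.52, and the vehicle call was lost without vehicle replicate 3 and without the irradiated replicate 4.

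**Figure D2:**
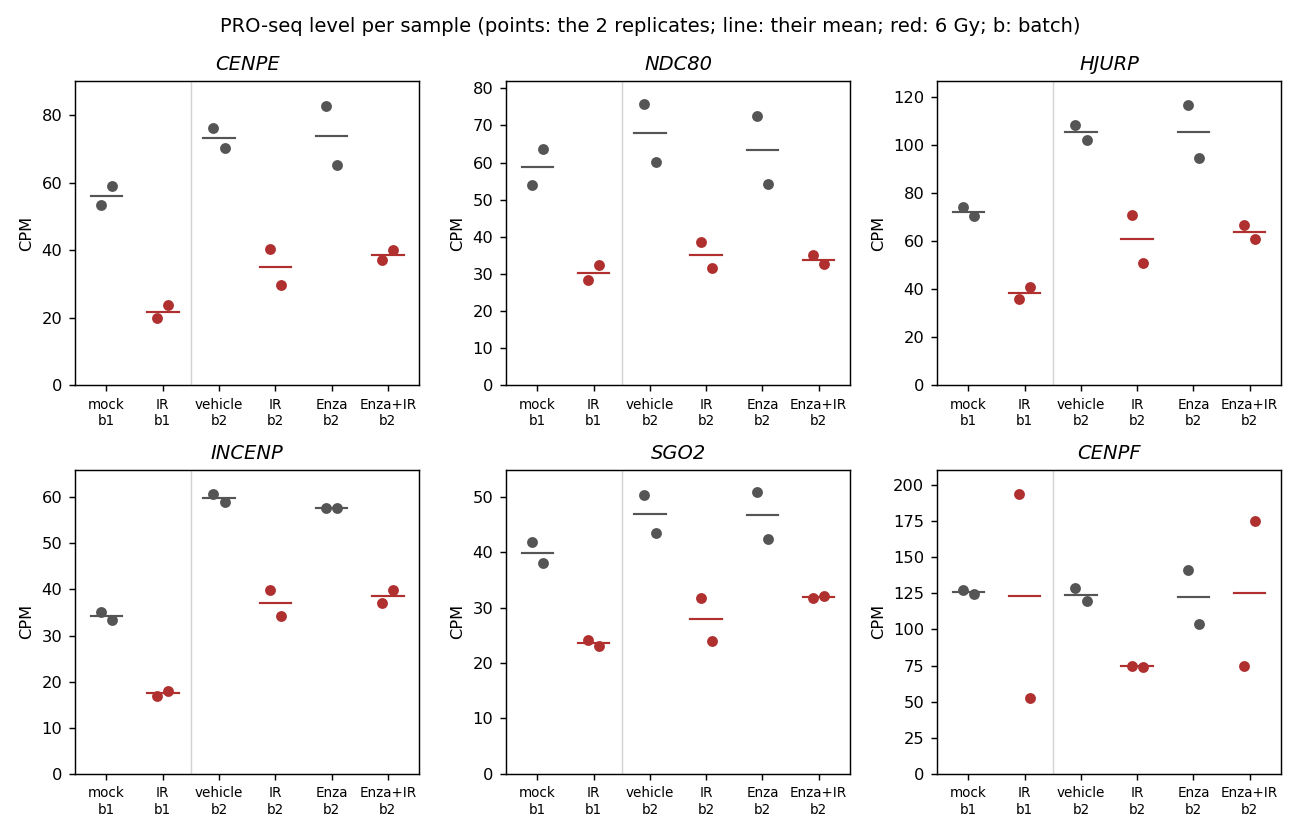
PRO-seq level in CPM, on a linear axis from 0, for the 5 members called lower in vehicle cells and for CENPF, in the 2 replicates of each of the 6 groups (points, with a line at their mean and irradiated groups in red). Irradiated samples of the first 5 genes lie below their own controls without overlap, whereas CENPF has 1 high sample, 194 CPM and 175 CPM, in 2 of the 3 irradiated groups.

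The start regions of these 5 genes are shown because the genes moved together and because cell cycle genes are often described by short promoter elements. The sequences are from RefSeq on GRCh38.p14, 250 bases before to 10 bases after the annotated start, written in the direction of transcription. They are NDC80 at chr18:2571307-2571566 (plus strand), HJURP at chr2:233854526-233854785 (minus strand), INCENP at chr11:62123761-62124020 (plus strand), SGO2 at chr2:200525892-200526151 (plus strand) and CENPE at chr4:103198334-103198593 (minus strand). Capitals mark exact matches, on either strand, to the CHR element (TTTGAA), to the CCAAT box, whose letters are its name, or to an E2F site. For E2F sites 4 variants were searched, TTCCCGC with its close relative TTCGCGC, and TTGCCGC with its close relative TTGGCGC.
NDC80: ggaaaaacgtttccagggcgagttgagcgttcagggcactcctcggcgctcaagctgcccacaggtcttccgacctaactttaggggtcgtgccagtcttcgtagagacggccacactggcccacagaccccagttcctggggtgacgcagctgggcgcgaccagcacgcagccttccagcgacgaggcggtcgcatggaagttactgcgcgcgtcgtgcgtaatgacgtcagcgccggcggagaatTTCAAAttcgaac
HJURP: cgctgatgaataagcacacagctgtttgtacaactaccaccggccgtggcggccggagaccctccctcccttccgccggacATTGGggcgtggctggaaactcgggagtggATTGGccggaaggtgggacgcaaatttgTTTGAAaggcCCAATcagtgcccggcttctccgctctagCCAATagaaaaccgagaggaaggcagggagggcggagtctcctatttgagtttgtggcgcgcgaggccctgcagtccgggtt
INCENP: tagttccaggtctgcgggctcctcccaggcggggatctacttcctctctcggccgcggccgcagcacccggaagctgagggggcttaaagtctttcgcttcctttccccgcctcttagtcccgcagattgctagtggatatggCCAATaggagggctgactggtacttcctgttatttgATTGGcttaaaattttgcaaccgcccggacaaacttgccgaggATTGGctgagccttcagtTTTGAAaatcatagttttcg
SGO2: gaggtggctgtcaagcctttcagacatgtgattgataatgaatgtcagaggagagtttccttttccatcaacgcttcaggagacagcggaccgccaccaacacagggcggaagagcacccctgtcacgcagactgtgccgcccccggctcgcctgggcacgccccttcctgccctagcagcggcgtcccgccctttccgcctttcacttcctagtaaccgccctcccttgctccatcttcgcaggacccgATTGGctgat
CENPE: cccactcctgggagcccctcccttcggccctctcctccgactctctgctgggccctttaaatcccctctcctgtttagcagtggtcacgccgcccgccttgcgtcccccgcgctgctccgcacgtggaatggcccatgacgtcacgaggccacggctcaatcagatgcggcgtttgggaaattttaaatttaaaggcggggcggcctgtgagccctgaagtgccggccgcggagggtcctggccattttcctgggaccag

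The NDC80 window has a CHR match that begins 3 bases before the start, and the INCENP window has one 10 bases before the start together with 3 CCAAT boxes at 107, 71 and 28 bases before it. HJURP has 4 CCAAT boxes and a CHR match 111 bases before the start, and an E2F match that begins at base 9 runs past the stretch shown. SGO2 has a single CCAAT box in the window shown, which begins at base 1. RefSeq lists another SGO2 start, and in its window a CCAAT match begins 65 bases before that start. No match was found in the CENPE window, which says only that these letters are not in it. A match is a string of letters and was not tested for binding.

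RefSeq promoter windows of 300 bases, from 250 before to 50 after the start, were found for 30 of the 35 members. Those of CENPH, CENPL, CENPM, KNL1 and MIS18A were not analysed here. The CHR letters were in 13 of the 30 (43.3%) and in 18.2% of 27305 genes with a window. CCAAT was in 20 of the 30 (66.7%) against 39.7% of all genes, and an E2F variant in 12 (40.0%) against 15.3%. Among the members called lower over both batches, 6 of 12 windows held the CHR letters, and among the others 7 of 18 did. CCAAT was in 8 of 12 and in 12 of 18, the same share of 66.7%. A CCAAT box read on the other strand (ATTGG) can share bases with the E2F variant TTGGCGC, and each motif was counted on its own.

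**Figure D3:**
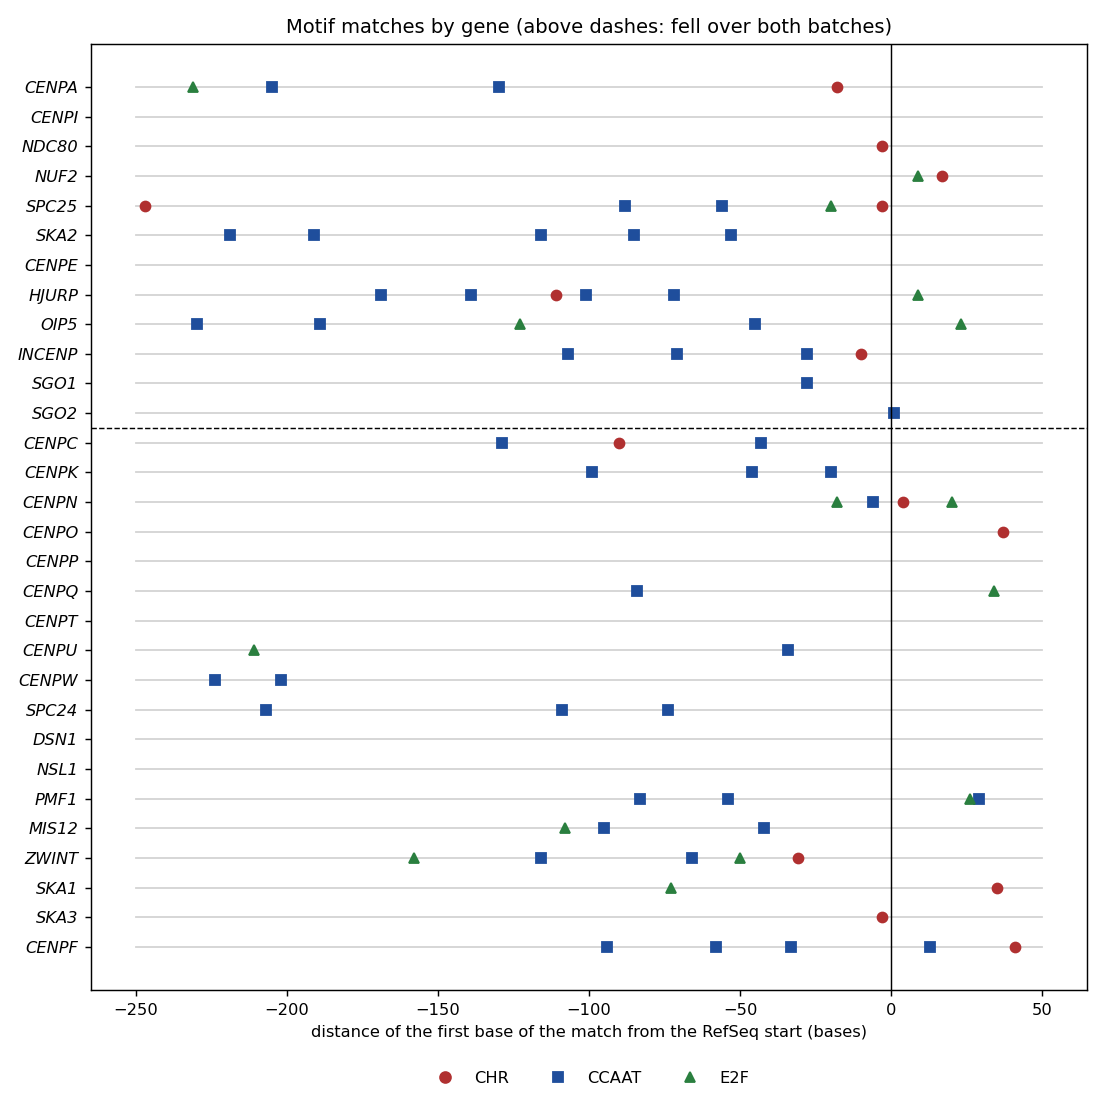
Position of the first base of each CHR, CCAAT and E2F match relative to the RefSeq start, in bases, in the first promoter window of each of 30 members. Members above the dashed line fell after IR over both batches, and matches of all 3 kinds occur on both sides of it.

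At the centromeric nucleosome and in the CCAN, few genes were called after IR. None of 14 was called in vehicle cells or in enzalutamide-treated cells, and 2 were called lower in batch 1 and 3 over both batches. Of all genes tested, 0.819% were called lower in batch 1 and 1.66% over both batches. Over both batches 12 of the 14 had a log2 fold change below 0, as had 55.1% of all genes tested, and their median was -0.089. CENPL, a CCAN subunit that pairs with CENP-N, had the largest fall. It had 72.6 and 60.2 CPM in mock cells, 46.2 and 42.1 CPM after IR in batch 1, 45.4 and 43.4 CPM in vehicle, 37.8 and 29.8 CPM after IR in batch 2, 43.1 and 43.9 CPM in enzalutamide, and 34.4 and 33.1 CPM with both. Its irradiated samples were below their controls in all 3 pairs, and its log2 fold change over both batches was -0.52 (SE 0.09, edgeR adjusted p = 0.00054). It was not called in vehicle cells (-0.43, adjusted p = 0.113), and its call in batch 1 was lost without the irradiated replicate 2 and with t1 libraries alone.

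CENPA, the histone variant itself, had 60.2 and 64.5 CPM in mock cells and 44.7 and 46.5 CPM after IR in batch 1, a fall of 1.36-fold (edgeR adjusted p = 0.035). In batch 2 the values were closer, at 96.4 and 92.6 CPM in vehicle and 85.3 and 76.4 CPM after IR. With enzalutamide they were 101 and 94.2 CPM, and 92.6 and 90.7 CPM after IR. The groups did not overlap in any of the 3 pairs, yet the log2 fold change was -0.26 (adjusted p = 0.247) in vehicle and -0.12 (adjusted p = 0.688) in enzalutamide-treated cells. The batch 1 call was lost in 5 of 11 alternative settings, among them t2 libraries alone. CENPI, a subunit of the CENP-H/I/K/M group, had a log2 fold change of -0.28 (SE 0.07, adjusted p = 0.031 in edgeR) over both batches, and that call was lost in 12 of 15 alternatives.

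The other 11 CCAN genes were not called in these comparisons in the fits used here. CENPP, a subunit of the CENP-O group, had the highest value after IR among them, with 90.3 and 117 CPM in mock cells and 127 and 144 CPM after IR in batch 1 (log2 fold change 0.39, edgeR adjusted p = 0.228). It was called higher in batch 1 without mock replicate 2 (0.58, edgeR adjusted p = 0.0015), with t2 libraries alone (1.052, adjusted p = 1.73e-05), with the replicate block (0.40, adjusted p = 0.00031) and without the filter on low counts. CENPC, which links CENP-A nucleosomes to the outer kinetochore, had -0.18 over both batches (SE 0.07, adjusted p = 0.223), and CENPN, which reads the CENP-A nucleosome, had -0.15 (SE 0.07, adjusted p = 0.31). CENPH, CENPK, CENPM, CENPO, CENPQ, CENPT, CENPU and CENPW lay between -0.13 and 0.064 over both batches. CENPT, the second CCAN arm that binds the NDC80 complex, had 52.96 and 42.0 CPM in mock cells and 51.0 and 40.3 CPM after IR.

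The KMN network, which holds the NDC80, MIS12 and KNL1 complexes, split by subunit. Of its 10 genes, 4 were called lower over both batches, NDC80, NUF2, SPC25 and KNL1, and the other 6 were not. NUF2 is the coiled-coil partner of NDC80 and had 44.2 and 40.5 CPM in mock cells and 31.5 and 27.5 CPM after IR in batch 1. In batch 2 it had 44.7 and 36.2 CPM in vehicle, 27.2 and 26.8 CPM after IR, 43.0 and 31.2 CPM in enzalutamide, and 24.6 and 26.6 CPM with both. Irradiated samples were lower in all 3 pairs without overlap, and NUF2 was called in batch 1 (-0.52, SE 0.12, edgeR adjusted p = 0.032). It missed the threshold in vehicle cells (-0.62, SE 0.14, adjusted p = 0.062). The batch 1 call was lost with DESeq2 and without the irradiated replicate 2.

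KNL1, the scaffold that recruits the BUB checkpoint kinase, had 44.1 and 49.3 CPM in mock cells and 30.8 and 33.3 CPM after IR in batch 1 (-0.54, SE 0.11, edgeR adjusted p = 0.018). In batch 2 it had 69.7 and 58.9 CPM in vehicle, 57.9 and 43.1 CPM after IR, 83.7 and 68.8 CPM in enzalutamide, and 53.4 and 55.2 CPM with both. The groups did not overlap, but the spread in batch 2 was wide and neither comparison there was called (adjusted p = 0.277 and 0.112). The batch 1 call was lost with DESeq2, without the irradiated replicate 1 and with t2 libraries alone. SPC25, the partner of SPC24 at the inner end of the NDC80 complex, had a log2 fold change of -0.37 (SE 0.09, edgeR adjusted p = 0.024) over both batches, a call lost in 9 of 15 alternatives.

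SPC24 stood at 105 and 115 CPM in mock cells and 98.4 and 108 CPM after IR in batch 1, and at 117 and 127 CPM in vehicle and 137 and 122 CPM after IR in batch 2. These groups overlap, and its log2 fold change over both batches was -0.031 with a 95% interval of -0.19 to 0.12. So 3 subunits of the 4-part NDC80 complex were called lower over both batches and SPC24 was not. The MIS12 complex genes DSN1, NSL1, PMF1 and MIS12 lay between -0.069 and 0.062 over both batches, and ZWINT, which binds KNL1, at -0.076. For those 5 genes the 95% intervals over both batches lay within a 1.5-fold change. These intervals use summed t1 and t2 counts. In batch 1 the mean change of NSL1, ZWINT, MIS12 and DSN1 differed in direction by t number. NSL1 had 42.99 and 58.87 CPM in mock t1 libraries and 32.92 and 31.25 CPM in irradiated t1 libraries. In t2 libraries it had 34.19 and 30.58 CPM in mock and 56.04 and 58.19 CPM in irradiated cells. The intervals do not measure that spread.

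In the SKA complex, which tracks microtubule ends, SKA2 was called lower over both batches (-0.35, SE 0.07, edgeR adjusted p = 0.004). Its values were 78.1 and 68.1 CPM in mock cells, 57.8 and 55.4 CPM after IR in batch 1, 63.0 and 64.0 CPM in vehicle, and 54.2 and 50.8 CPM after IR in batch 2. The groups did not overlap, although no single batch gave a call. SKA3 had -0.23 over both batches (SE 0.09, adjusted p = 0.174). SKA1 was listed at 0 counts in all 16 libraries, whereas its neighbours on chromosome 18 had counts. Summed over the libraries these were 5692 for MBD1, 2307 for CXXC1, 2027 for MAPK4 and 214 for MRO. Of 19144 protein-coding genes matched, 277 were at 0 in all libraries, and the reason was not tested.

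The corona pair differed in how far replicates agreed. CENPE fell in every IR comparison, as given above, while CENPF, a large farnesylated protein of the corona and nuclear envelope, was called in none of them. CENPF had 127 and 124 CPM in mock cells against 194 and 52.4 CPM after IR in batch 1, 129 and 120 CPM in vehicle against 74.7 and 74.0 CPM after IR, and 141 and 104 CPM in enzalutamide against 74.4 and 175 CPM with both. Within 2 of the 3 irradiated groups the replicates lay on opposite sides of the controls, and only the irradiated vehicle pair was low without overlap (-0.78, SE 0.27, edgeR adjusted p = 0.289). That fit shares its estimate of the spread with the enzalutamide groups, and the vehicle result was called when the irradiated enzalutamide replicate 3 (-0.78, adjusted p = 0.0077) or 4 (-0.78, adjusted p = 0.0061) was left out. In batch 1 the high value came from 1 library, t1 of replicate 1, with 264 CPM against 50.3 to 67.5 CPM in the other 3 irradiated libraries. A ratio as large as that of CENPF, 3.92, was found in 2 of 9305 genes, CENPF included. In the irradiated enzalutamide group, replicate 4 was 2.33-fold above replicate 3, as high a ratio as in 3 of 9305 genes, CENPF included. The log2 fold change in batch 1 was -0.037 with all samples, -1.26 without the irradiated replicate 1 (edgeR adjusted p = 8.62e-08) and 0.62 without the irradiated replicate 2 (adjusted p = 0.123). Over both batches it was -0.42 with all samples and -0.96 without the irradiated batch 1 replicate 1 (adjusted p = 1.74e-06). In enzalutamide-treated cells it was -0.0057 with all samples, -0.74 without the irradiated replicate 4 (adjusted p = 0.073) and 0.50 without the irradiated replicate 3 (adjusted p = 0.42).

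Among the CENP-A loading factors, HJURP fell as given above, and OIP5, the MIS18-beta subunit, was called lower in batch 1. OIP5 had 60.9 and 67.6 CPM in mock cells and 48.2 and 40.5 CPM after IR (-0.54, SE 0.12, edgeR adjusted p = 0.025). The libraries of mock cells differed by t number, with 38.4 and 53.8 CPM in t1 and 75.4 and 86.1 CPM in t2, and with t1 libraries alone the log2 fold change was -0.062 (adjusted p = 0.85). In batch 2 it had 35.9 and 35.5 CPM in vehicle and 29.4 and 36.1 CPM after IR, which overlap. Its call over both batches (-0.36, SE 0.10, edgeR adjusted p = 0.036) was lost in 9 of 15 alternatives. MIS18A, the other MIS18 subunit measured, had a log2 fold change of -0.093 (95% interval -0.30 to 0.11) over both batches.

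At the inner centromere all 3 genes were called lower over both batches, INCENP and SGO2 with the values above and SGO1 with -0.35 (SE 0.08, edgeR adjusted p = 0.013). SGO1, the other shugoshin, had 41.7 and 39.2 CPM in mock cells, 30.4 and 30.5 CPM after IR in batch 1, 39.6 and 33.9 CPM in vehicle, 32.7 and 29.6 CPM after IR in batch 2, 42.0 and 31.2 CPM in enzalutamide, and 30.2 and 30.2 CPM with both. It was low in all 3 irradiated groups without overlap, but by a narrow margin in batch 2. Its call was lost in 7 of 15 alternatives. By contrast, CENPE, NDC80, HJURP, INCENP, SGO2, NUF2 and CENPL were called lower over both batches in all 15 alternatives.

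**Figure D4:**
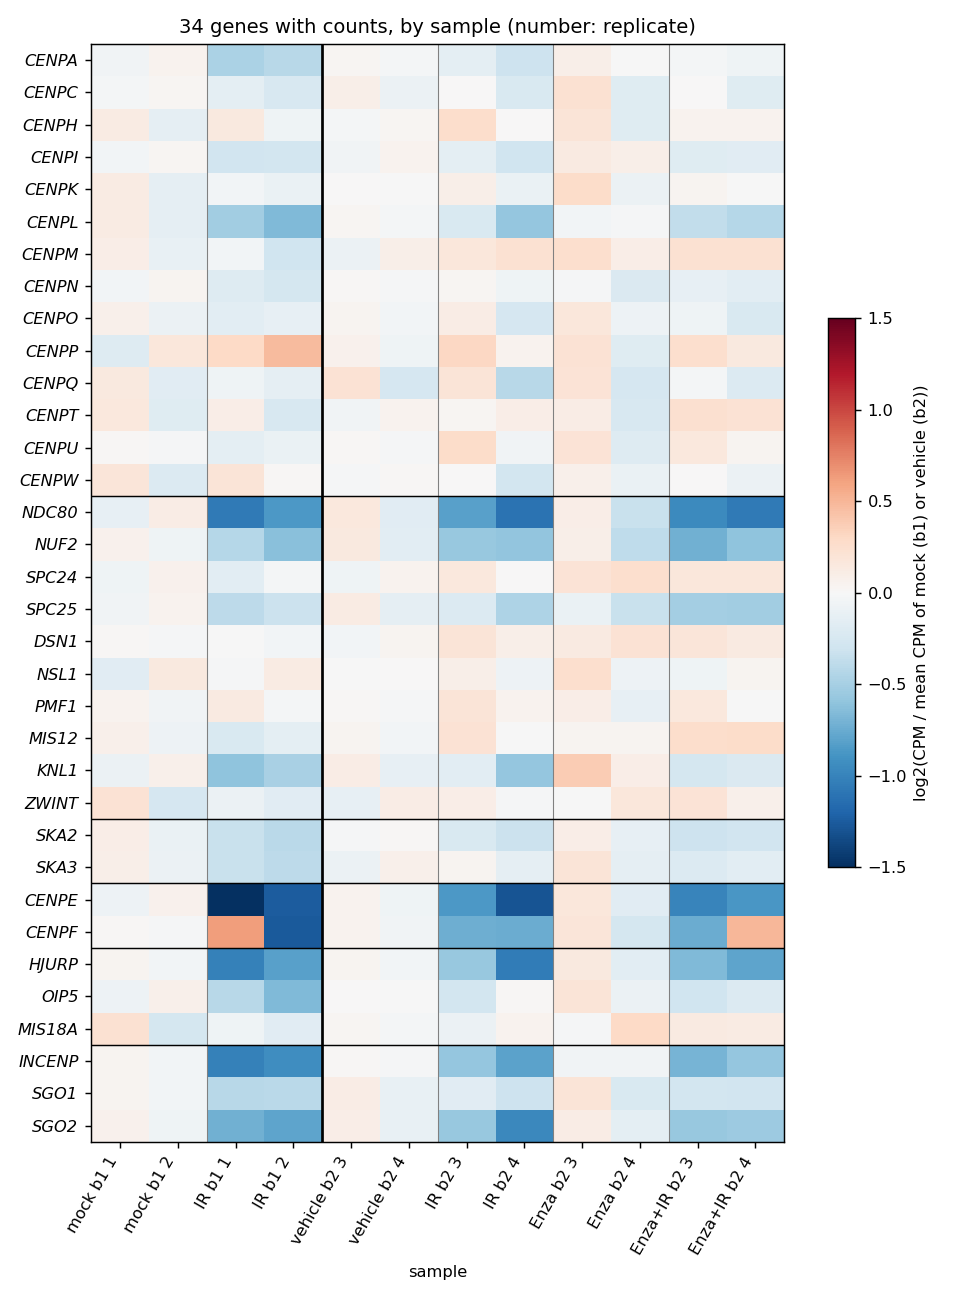
Level of each of the 34 members in each of the 12 samples as log2 of CPM over the mean of its batch control, mock in batch 1 and vehicle in batch 2 (blue lower, red higher). The darkest blue cells fall in irradiated columns, among them NDC80, NUF2, CENPE, HJURP, INCENP, SGO2, CENPL and 4 of the 6 irradiated CENPF samples, while MIS12, DSN1 and most CCAN genes stay pale.

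Other genes of the kinetochore pathway were read from a list of 23 that are not members. Over both batches 10 of them were called lower and 1 higher, against 1.66% and 2.39% of all genes tested. In vehicle cells, in enzalutamide-treated cells and in batch 1, 7, 7 and 8 were called lower, against 0.353%, 0.293% and 0.819% of all genes. BUB1, the checkpoint kinase recruited by KNL1, had 34.4 and 38.6 CPM in mock cells and 13.5 and 16.9 CPM after IR in batch 1, and a log2 fold change of -1.17 over both batches (SE 0.09, edgeR adjusted p = 1.9e-08). The other 3 subunits of the chromosomal passenger complex fell with INCENP: CDCA8 by 0.94, AURKB by 0.88 and BIRC5 by 0.78 on the log2 scale over both batches. The checkpoint kinases TTK and BUB1B fell by 0.82 and 0.67. TRIP13, a remodeller of the checkpoint protein MAD2 and the only gene of the list called higher, had 0.26 over both batches (SE 0.07, adjusted p = 0.039). It is named outside the naming rule, after its value was seen.

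Cell cycle genes of 2 further lists moved beside the members. Of 12 G2/M genes, all 12 were called lower over both batches, with a median log2 fold change of -1.12, and 11, 11 and 10 were called lower in vehicle cells, in enzalutamide-treated cells and in batch 1. Of 16 G1/S genes none was called lower and 6 were called higher over both batches, with a median of 0.26. In the same 3 comparisons 3, 1 and 1 were called higher. Of all genes tested, 1.66% were called lower and 2.39% higher over both batches. The shares in the 3 comparisons were 0.353%, 0.293% and 0.819% lower and 0.743%, 0.625% and 2.0% higher. In the promoter windows, CHR letters were in 6 of 9 G2/M genes (66.7%) and in 0 of 14 G1/S genes. The part of a shift in cell cycle phase in the members' result was not tested.

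Enzalutamide changed no member past the threshold. Averaged over irradiated and unirradiated cells of batch 2, 0 of 34 were called by edgeR, 3 had an unadjusted p under 0.05, and 0.0628% of 28651 genes were called in either direction. DESeq2 also called 0. The median log2 difference of the members was 0.028 and that of all genes 0.00074. The 3 with a small unadjusted p were SPC24 (0.15, adjusted p = 0.756), SPC25 (-0.20, adjusted p = 0.783) and CENPN (-0.12, adjusted p = 0.802). For 33 of 34 members the 95% interval lay within a 1.5-fold change in either direction, and the exception was CENPF (0.35, interval -0.093 to 0.79). The androgen-regulated genes used as a check gave -0.59 for TMPRSS2 (edgeR adjusted p = 0.0012), -0.66 for KLK3 (adjusted p = 0.69) and -0.26 for FKBP5 (adjusted p = 0.22), so 1 of the 3 was called.

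The change after IR was also compared between enzalutamide-treated and vehicle cells by the interaction term. No member was called by edgeR or DESeq2, 0 had an unadjusted p under 0.05, and 0.0% of 28651 genes were called. The interaction was 0.042 for NDC80 (95% interval -0.39 to 0.48), 0.12 for CENPE (-0.28 to 0.52), 0.064 for HJURP (-0.33 to 0.46), 0.11 for INCENP (-0.18 to 0.40) and 0.20 for SGO2 (-0.20 to 0.59). Intervals lay within a 1.5-fold difference for 30 of 34 members, and the exceptions were CENPQ, CENPT, CENPF and SGO2. For those 4 the interval reached past a 1.5-fold difference between the responses. The 2 IR comparisons of batch 2 share 1 fit but not their control samples.

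The response to IR was then compared between the batches. No member was called by edgeR or DESeq2, 2 had an unadjusted p under 0.05, and 0.106% of 29195 genes were called in either direction. Those 2 were OIP5 (-0.40, adjusted p = 0.844) and CENPM (-0.34, adjusted p = 0.878), both lower in batch 1 than in batch 2. Intervals lay within a 1.5-fold difference for 25 of 34 members. For CENPE the difference was -0.28 (interval -0.66 to 0.098) and for INCENP -0.26 (-0.59 to 0.063), and with t2 libraries alone 9 members were called, 3 higher (NDC80 among them) and 6 lower, when 20.3% of all genes were called. Levels in unirradiated cells also differed between batches, from 1.06 on the log2 scale for ZWINT, with a mean of 46.7 CPM in mock and 22.5 CPM in vehicle, to -0.81 for INCENP, with 34.2 and 59.9 CPM. Batch and control treatment cannot be told apart here, and no test was made. Across the 34 members this ratio and the log2 gene span had r = -0.357, and across 19842 genes r = -0.349, both as descriptions.

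**Figure D5:**
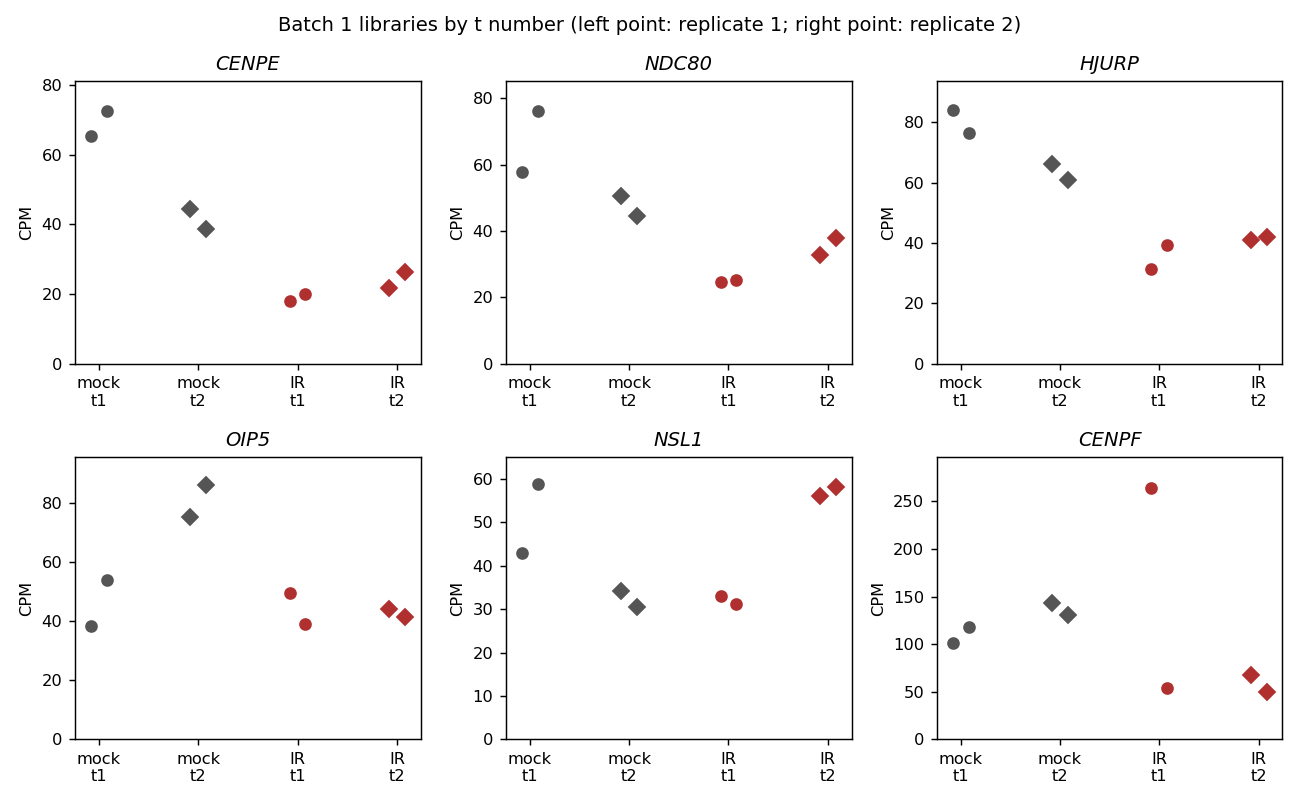
Level in CPM, on a linear axis from 0, in the 8 separate libraries of batch 1 by t number (circles t1, diamonds t2, irradiated in red). CENPE, NDC80 and HJURP are lower in all 4 irradiated libraries than in all 4 mock libraries, whereas OIP5 and NSL1 differ by t number and CENPF has 1 irradiated library at 264 CPM.

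Per kilobase of gene span, the members' levels in vehicle cells ran from 0.083 CPM per kb for CENPW to 11.9 CPM per kb for SPC24. CENPA followed at 11.1, HJURP at 5.91, ZWINT at 5.55 and MIS12 at 5.30 CPM per kb. CENPE and SGO2 were near the low end at 0.79 and 0.81 CPM per kb. Across the 34 members the IR change over both batches had r = -0.0741 with these levels and r = -0.0655 with the gene span, given as descriptions.

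Spans from RefSeq on GRCh38.p14 showed 16 members that overlap another gene, 8 of them over more than 10% of their span. PMF1 shares all of its span with the read-through gene PMF1-BGLAP, CENPN shares 63.2% with CENPN-AS1, SGO1 45.0% with SGO1-AS1, CENPP 22.2% with ECM2, SKA2 19.0% with a long noncoding RNA gene, OIP5 17.4% with OIP5-AS1, SPC25 13.8% with NOSTRIN and CENPO 11.1% with ADCY3. Whether counting used strand is not given in the sources used here, so the values of these 8 genes are uncertain. CENPE, HJURP, INCENP and SGO2 overlap no RefSeq gene, and NDC80 shares 3.27% of its span with a pseudogene.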

How the data were processed

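Each batch has 1 table of gene counts deposited by the authors. The counts are unnormalized: all are whole and the library totals differ. Cutadapt 1.8.1, Bowtie2 2.4.4, SAMtools 1.9 and the build hg38 are named in the submitters' processing notes. The counting tool, annotation, use of strand and treatment of duplicates are not given in the sources used here. Of 60605 identifiers, 60463 matched a gene name. Spans and promoter windows are from RefSeq GRCh38.p14.

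Counts were tested with edgeR 4.0.16 in R 4.3.3 (filterByExpr, TMM scaling, glmQLFit, glmQLFTest). P-values are two-sided and Benjamini-Hochberg adjusted over all genes tested, with a threshold of 0.05. The 8 batch 2 libraries were fitted together, the 4 batch 1 samples alone, and the 8 samples without enzalutamide with batch as a term. SEs and 95% intervals come from the fold change and the test statistic. CPM are TMM-scaled over the 12 samples. DESeq2 1.42.0, other scaling, no filter, a replicate block, left-out replicates and t1 or t2 alone were tried. The steps were tested on simulated data. The members and the p53 and androgen check genes were named whatever their values. In the other kinetochore list, the 6 with the largest change past the threshold are named. The genes of the G2/M and G1/S lists are summarized and not named. The members, lists and tests were chosen with earlier results of these data known. Marker genes of the cell line are given in part, and the rest are not reported here.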

Additional observations from a re-analysis of the deposited data

Results flagged for a closer look

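Among the listed genes, 1 differed between the batches in its change after IR by the edgeR test of that difference. MDM2, a p53 target used to check the labels, had 128 and 134 CPM in mock cells and 1076 and 1188 CPM after IR in batch 1, and 147 and 151 CPM in vehicle and 693 and 621 CPM after IR in batch 2. The log2 fold change was 3.11 in batch 1 and 2.10 in vehicle cells, and the difference was 0.99 (SE 0.17, edgeR adjusted p = 0.027). No centromere or kinetochore gene passed this test.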

How the results depend on the processing

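Direction held for every called member under every alternative run. With the replicate block the members called numbered 12 in vehicle cells, 10 in enzalutamide-treated cells, 16 in batch 1 (15 lower, 1 higher), 15 over both batches (14 lower, 1 higher) and 0 in the other 3 comparisons, against 5, 4, 10, 14 and 0 without it. The share of all genes called rose too, from 1.1% to 4.59% in vehicle cells, 0.918% to 3.32% in enzalutamide-treated cells, 2.82% to 9.01% in batch 1 and 4.05% to 6.69% over both batches. Only 2 replicate numbers are shared within a batch, and the labels do not say whether same-numbered samples were handled together. Whether the numbers pair the samples is therefore not settled here. Same-numbered samples deviated together with a correlation across 29470 genes of 0.0982 to 0.245 in batch 2 and 0.147 in batch 1. Without the filter on low counts 7 were called in enzalutamide-treated cells, and 1, CENPF, for enzalutamide and for the interaction. Of 54974 genes tested in these runs, 556, 230 and 32 were called. With t2 libraries alone 17 were called in batch 1 (15 lower, 2 higher), 8 over both batches (all lower) and 9 for the difference between batches (6 lower, 3 higher), and 44.7%, 2.37% and 20.3% of all genes were called. Leaving out 1 replicate gave 2 to 6 called in vehicle cells, 1 to 7 in enzalutamide-treated cells, 6 to 13 in batch 1, 8 to 13 over both batches, 0 for enzalutamide and for the interaction, and 0 to 1 for the difference between batches. A lone sample left in a group is assumed to vary like the other groups, so these ranges are rough. The number of all genes called also changed between these runs, so the ranges alone do not single out the members. With t1 libraries alone, IR in batch 1 gave -0.67 for NSL1 and 0.61 for CENPT, and with t2 libraries alone 0.83 and -0.75, all past the threshold in edgeR, against 0.054 and -0.055 for the summed libraries. No other member was past the threshold in opposite directions, but the mean change of others differed in sign by t number. ZWINT had 53.1 and 28.2 CPM in mock t1 libraries and 49.8 and 66.5 CPM in irradiated t1 libraries. In t2 libraries it had 53.8 and 54.2 CPM in mock and 31.9 and 21.2 CPM in irradiated cells. The cause was not tested. CENPW, with 133.3 counts per library on average, is the member most limited by depth.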

Other observations

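Levels of the members in the separate libraries of batch 1 were linked to the t number in a way that differed by group. In mock cells the t2 libraries had 0.633 times the t1 level for CENPP, 0.636 times for NSL1 and 0.602 times for CENPE, and 1.63 times for CENPT and 1.33 times for ZWINT. In irradiated cells the order turned, with 1.46 times for CENPP, 1.78 times for NSL1 and 1.27 times for CENPE, and 0.659 times for CENPT and 0.457 times for ZWINT. The ratio lay on opposite sides of 1 in the mock and irradiated cells for 25 of 34 members (73.5%) and for 7707 of 9305 genes with a mean above 30 CPM (82.8%). What t1 and t2 stand for is not in the labels.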
